A study of Homo sapiens with 4 samples.

Results

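The integrated stress response lets a cell slow protein synthesis when it meets a stress. The 4 kinases EIF2AK1, EIF2AK2, EIF2AK3 and EIF2AK4 each sense a different stress and phosphorylate the alpha subunit of the initiation factor eIF2. Most translation then falls while translation of the transcription factor ATF4 increases, and ATF4 with its partner DDIT3 switches on genes of amino acid supply and of feedback. The control of ATF4 is largely translational, so its transcript level on an array is a separate quantity from the protein's activity.

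Described here are 10 genes of this response in cells of SW620, an established line from a human colon cancer: the 4 kinases, ATF4, DDIT3, the feedback genes PPP1R15A and TRIB3, and the target genes SESN2 and ASNS. They are 10 of the 19775 genes that the array's annotation names singly. The genes were chosen by their place in the pathway with their differences between the clones, measured on these same arrays, already known. The differences are therefore given as a description, without a test, and support nothing by themselves. Every probe set that the annotation assigns to a member is shown, 19 in all: ATF4 and DDIT3 had 1 each, EIF2AK2 had 3 and the other 7 genes had 2.

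The groups were a CD133+ clone with 2 arrays and a CD133- clone with 2 arrays, both grown from magnetically sorted cells and purified by CD133 again before RNA extraction. CD133 is a surface protein that has been used to mark colon cancer stem cells. Each group is 1 clone, so CD133 status and clone cannot be told apart, and the labels do not say whether the replicate arrays came from separate cultures. Standard errors and p-values therefore cover the spread among these 4 arrays alone, and this may be technical. A lower signal from fewer cells that express a gene and one from less RNA per cell cannot be told apart.

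Each array gave 54675 probe sets as log2 signals, scaled here to a common distribution. PROM1, which encodes CD133, had signals of 8.46 and 8.73 in the CD133+ clone, against 3.31 and 3.35 in the CD133- clone, so the labels' direction held. Colon epithelium markers were at a mean log2 signal of 8.87 and 8.93 in CD133+ cells and 8.88 and 8.88 in CD133- cells over 12 genes, of which 6 had a positive and 6 a negative difference, with 0 called. The 4 with the smallest p were VIL1 (villin, -0.35), EPCAM (-0.26), KRT8 (-0.17) and CDH1 (E-cadherin, 0.26). Levels within this list ran from KRT18, with means of 14.05 in CD133+ and 14.14 in CD133- cells, to KRT20 at 3.33 and 3.51. LGALS4 was at 4.68 and 4.73 and GPA33 at 5.28 and 5.03, where the median over all probe sets was 4.53. Markers of blood, stromal and vascular cells were at 4.65 and 4.78 in CD133+ cells and 4.499 and 4.67 in CD133- cells over 13 genes. Of these markers 12 had a positive difference, where 57.7% of all genes had one, and 0 were called. The 4 with the smallest p were LYZ (lysozyme, -0.39), the endothelial CDH5 (0.33), the leukocyte marker PTPRC (0.27) and VWF (0.28). The levels of this list were near the median of 4.53 over all probe sets, and both clones came from 1 established cancer cell line. A part of such cells in the results below was not tested. The log2 signal of the ACTB 3' probe set minus that of its 5' probe set, which grows as RNA is shortened, was 0.71 for CD133+ replicate 1 and 1.92 for CD133+ replicate 2, against 1.18 and 0.92 for the CD133- replicates. CD133+ replicate 2 had the highest ACTB value. For GAPDH the same measure was 0.097 and 0.090 for the CD133+ replicates and 0.017 and 0.026 for the CD133- replicates, so replicate 2 was not the highest there. Without CD133+ replicate 2, EIF2AK1 was at 0.85, SESN2 at 0.82, ASNS at 0.36 and EIF2AK4 at -1.43 (CD133+ minus CD133-). Without CD133+ replicate 1 they were at 0.81, 0.62, -0.13 and -0.65.

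The members did not move together between the clones. EIF2AK1 and SESN2 were higher in CD133+ cells, EIF2AK4 was lower, and the other 7 genes differed by 0.21 or less on the log2 scale in their brightest probe set. Of the 19 probe sets, 14 differed by under 0.25. By brightest probe set, 6 genes had a positive and 4 a negative difference, with a median of 0.061, against a median of 0.047 over all genes. The median size of the difference was 0.16 for the members and 0.17 for all genes.

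In a limma fit across all 54613 probe sets other than controls, 1 of the 19 member probe sets was called at an adjusted p under 0.05, the brightest of EIF2AK1, where 0.181% of all probe sets were called. Because the members were chosen with this contrast known, nothing is read from that count, nor from any call of a member given below. The arrays of the clones lay apart in 10 of the 19 member probe sets, 4 with CD133+ higher and 6 with CD133+ lower, where 43.9% of all probe sets had arrays apart.

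**Figure D1:**
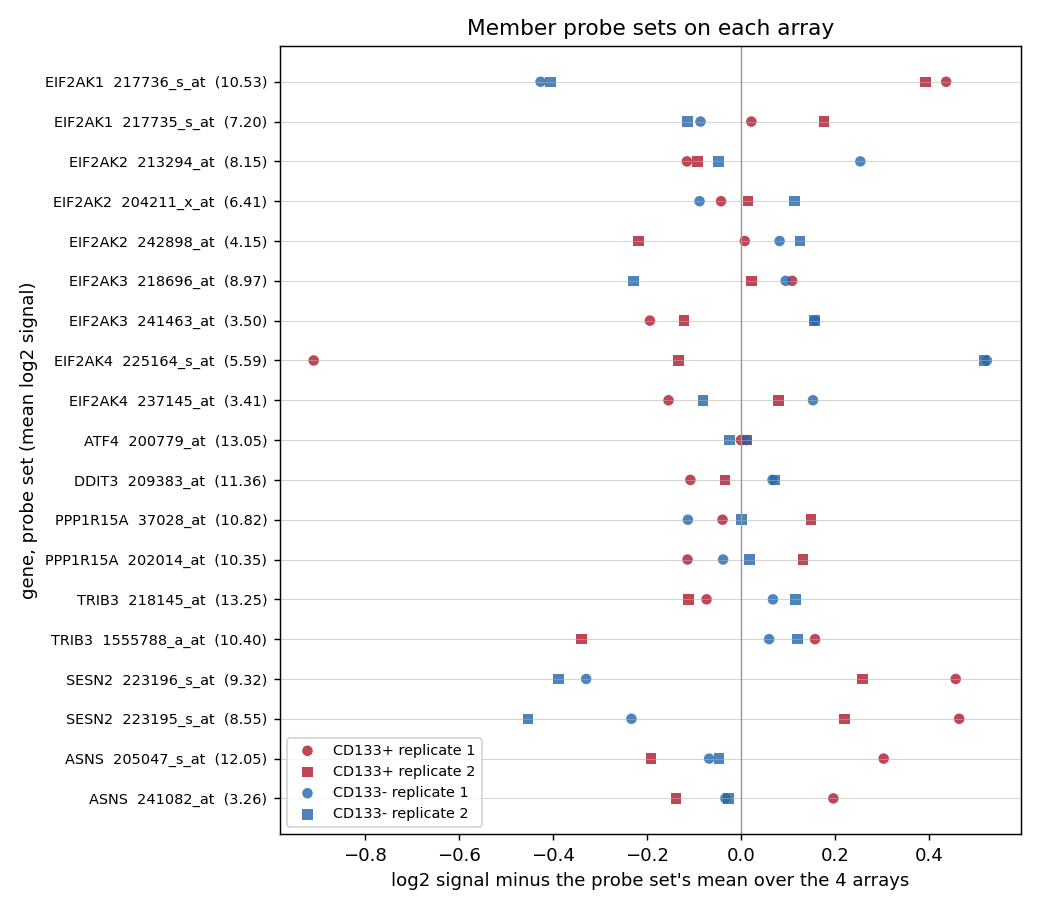
Log2 signal of each member probe set on each of the 4 arrays, minus the probe set's mean (given in brackets on the axis), with CD133+ arrays in red and CD133- arrays in blue. The red and blue points are farthest apart for the first EIF2AK1 probe set, EIF2AK4 225164_s_at and both SESN2 probe sets, and they overlap for ATF4, PPP1R15A and ASNS.

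EIF2AK1, or HRI, is the heme-regulated kinase, which also relays mitochondrial stress. Its brightest probe set, 217736_s_at, had log2 signals of 10.97 and 10.92 in CD133+ cells, against 10.11 and 10.13 in CD133- cells. The replicate arrays of each clone almost coincided, and the clones lay apart. The difference was 0.83 (SE 0.089, n = 2 arrays per clone), a 1.78-fold higher signal in CD133+ cells. The other probe set, 217735_s_at, had 7.23 and 7.38 in CD133+ and 7.12 and 7.09 in CD133- cells, a difference of 0.20 (SE 0.17). Both had the same sign, but the second difference was close to its standard error. The mean of both probe sets gave 0.51. The call of the brightest was lost in 6 of 12 alternative settings: as deposited, with centred arrays, without a variance trend, with averaged probe sets, and with either CD133- array left out. The difference itself stayed between 0.81 and 0.85 whichever array was left out.

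EIF2AK1 lies on chromosome 7 (GRCh38.p14, 6022247 to 6059175), and most of its neighbours also had higher signals in CD133+ cells. Of the 20 nearest measured genes, 10 on each side, 19 had a positive difference, where 57.7% of all genes had one, with a median of 0.56 and a range of -0.15 to 1.02. Only TNRC18 at 1.02 and ZDHHC4 at 0.89 were above EIF2AK1, and the adjacent genes CCZ1 and USP42 were at 0.0021 and 0.44. In a fit with 1 probe set a gene (the gene-level fit), 5 of the 20 neighbours were called, where 0.930% of all genes were called higher and 1.77% lower, among them FSCN1, which encodes the actin-bundling protein fascin, and RAC1, a small GTPase. The share of the neighbourhood in the EIF2AK1 difference was not tested. The reference places AIMP2 and ANKRD61 in overlap with EIF2AK1, and whether a probe set also detects them was not tested.

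EIF2AK4, or GCN2, is the kinase that binds uncharged transfer RNA and so responds to a lack of amino acids. The brighter of its probe sets, 225164_s_at, had log2 signals of 4.68 and 5.46 in CD133+ cells, against 6.11 and 6.11 in CD133- cells. The CD133- arrays coincided, whereas the CD133+ arrays differed from each other by more than most member probe sets did between clones. The difference was -1.04 (SE 0.28), 2.06-fold lower in CD133+ cells. The median log2 signal over all probe sets was 4.53, close to the value of CD133+ replicate 1, so the fold rests on a dim signal. Leaving out CD133+ replicate 1 gave -0.65, and leaving out CD133+ replicate 2 gave -1.43. The mean of both probe sets was -0.56.

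The other EIF2AK4 probe set, 237145_at, had 3.26 and 3.49 in CD133+ and 3.56 and 3.33 in CD133- cells, which overlap. Its mean lay under 3.42, the log2 signal below which the dimmest 20% of probe sets fell. EIF2AK4 lies on chromosome 15 (39934115 to 40035591), where the 20 neighbouring genes had a median of 0.090 and a range of -0.54 to 0.50. All 20 neighbours were above EIF2AK4.

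EIF2AK2, or PKR, binds double-stranded RNA and is itself induced by interferon. Of its 3 probe sets the brightest, 213294_at, had 8.03 and 8.05 in CD133+ and 8.40 and 8.10 in CD133- cells, a difference of -0.21 (SE 0.16). Leaving out CD133- replicate 1 gave -0.056, leaving out CD133- replicate 2 gave -0.36, and centring the arrays gave -0.43. The CD133- arrays differed more from each other than the nearest of them did from CD133+. The probe set 242898_at was at -0.21 (SE 0.19) and 204211_x_at at -0.026 (SE 0.19).

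EIF2AK3, or PERK, spans the membrane of the endoplasmic reticulum and senses unfolded proteins there. The brighter probe set, 218696_at, had 9.08 and 8.99 in CD133+ and 9.07 and 8.74 in CD133- cells, a difference of 0.13 (SE 0.15) with overlapping arrays. The much dimmer signal of 241463_at had the other sign, with 3.30 and 3.38 in CD133+ and 3.65 and 3.65 in CD133- cells, a difference of -0.31 (SE 0.13). The sign of EIF2AK3 also turned with each array centred on its median (-0.027), in the mean of both probe sets (-0.091) and without CD133- replicate 2 (-0.029). Without CD133- replicate 1 the value was 0.29. The 20 neighbours of EIF2AK2, on chromosome 2 (37099210 to 37156980), had a median of -0.17. Those of EIF2AK3, on the same chromosome (88556741 to 88628145), had a median of 0.036.

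**Figure D2:**
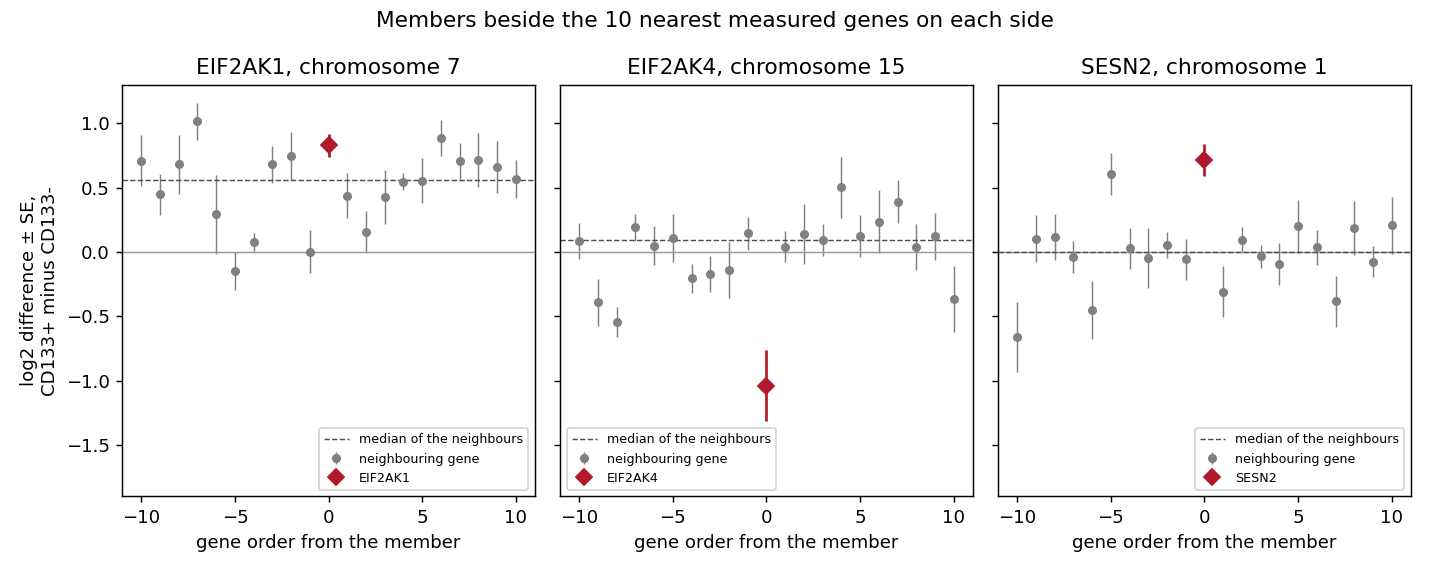
Log2 difference, CD133+ minus CD133-, with its standard error, for 3 members (red) and their 10 nearest measured genes on each side (grey), by gene order along the chromosome. The neighbours of EIF2AK1 have a median of 0.56, and those of EIF2AK4 and SESN2 have medians of 0.090 and -0.0019 (dashed lines).

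ATF4 encodes the central transcription factor of the response. Its 1 probe set, 200779_at, had 13.05 and 13.07 in CD133+ and 13.07 and 13.03 in CD133- cells. The arrays overlapped, and the difference was 0.012 (SE 0.051). The sign of the ATF4 value turned in the values as deposited (-0.044), with centred arrays (-0.12) and without CD133- replicate 2 (-0.0056). The paralogue ATF5, itself a stress-response transcription factor, was at 0.33 (SE 0.16, limma adjusted p = 0.444).

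DDIT3 encodes CHOP, a transcription factor of the C/EBP family that ATF4 induces and that promotes cell death under lasting stress. Its probe set 209383_at had 11.25 and 11.33 in CD133+ and 11.43 and 11.43 in CD133- cells. Both CD133+ arrays were lower, with a difference of -0.14 (SE 0.076), or 1.10-fold lower. The sign was negative in all 12 alternative settings, which ran from -0.22 to -0.10. Several of these settings cannot move a difference. With the arrays apart and 1 probe set, left-out arrays and averaging could not turn the sign either. The gene lies on chromosome 12 (57516588 to 57520517), overlapping MARS1 in the reference.

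PPP1R15A, or GADD34, brings a phosphatase to eIF2 and so ends the response. Its probe set 37028_at had 10.78 and 10.97 in CD133+ and 10.71 and 10.82 in CD133- cells, a difference of 0.11 (SE 0.10). This value ranged from 0.016 without CD133+ replicate 2 to 0.20 without CD133+ replicate 1. Its other probe set, 202014_at, was at 0.019 (SE 0.11), and the arrays overlapped in both. Its paralogue PPP1R15B, the form made without stress, was at 0.080 (SE 0.13, limma adjusted p = 0.844).

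TRIB3 encodes a pseudokinase that is induced by ATF4 and CHOP and restrains them. Signals of its brighter probe set, 218145_at, were 13.18 and 13.14 in CD133+ and 13.32 and 13.37 in CD133- cells. Both CD133+ arrays lay below both CD133- arrays, by a small amount: the difference was -0.18 (SE 0.050), or 1.14-fold lower. The probe set 1555788_a_at gave the same size, -0.18 (SE 0.16), with overlapping arrays. The sign was negative in all 12 alternative settings, from -0.33 with centred arrays to -0.16. Several of these settings cannot move a difference. With the arrays of the brighter probe set apart, leaving out 1 array could not turn the sign either. Of the paralogues, TRIB1 was at 0.24 (limma adjusted p = 0.324, the same sign in 2 of 3 probe sets) and TRIB2 at -0.070 (limma adjusted p = 0.923). TRIB3 lies on chromosome 20, where 8 of its 20 neighbours had a positive difference and their median was -0.070. The gene-level fit called 3 of the 20, where 0.930% of all genes were called higher and 1.77% lower. The share of the neighbourhood in the TRIB3 difference was not tested.

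SESN2, or sestrin 2, is a stress-induced leucine sensor that restrains the growth kinase complex TORC1 through the GATOR complexes. Its brightest probe set, 223196_s_at, had 9.78 and 9.58 in CD133+ and 8.995 and 8.94 in CD133- cells. The second, 223195_s_at, had 9.01 and 8.77 in CD133+ and 8.32 and 8.10 in CD133- cells. In both, the lower CD133+ array was above the higher CD133- array.

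The SESN2 differences were 0.72 (SE 0.12) and 0.69 (SE 0.15), or 1.64-fold and 1.61-fold higher in CD133+ cells. The gene was not called in the fit of all probe sets and was called in the gene-level fit, from which nothing is read. Over all alternative settings the brightest probe set stayed between 0.57 with centred arrays and 0.82 without CD133+ replicate 2. SESN2 lies on chromosome 1 (28259518 to 28282491), and all 20 neighbours were below it, with a median of -0.0019 and a highest value of 0.60. The paralogue SESN1 was at -0.31 (limma adjusted p = 0.583) and SESN3 at 0.012 (limma adjusted p = 0.991, the same sign in 4 of 7 probe sets).

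ASNS, asparagine synthetase, makes asparagine from aspartate and is an established ATF4 target. Its brighter probe set, 205047_s_at, had 12.35 and 11.86 in CD133+ and 11.98 and 12.001 in CD133- cells. The CD133- arrays lay between the CD133+ arrays, and the difference was 0.11 (SE 0.14). Leaving out CD133+ replicate 1 turned it to -0.13, and leaving out CD133+ replicate 2 gave 0.36, so its sign rests on which CD133+ array is used. The dim probe set 241082_at was at 0.059 (SE 0.14), with the same order of arrays.

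**Figure D3:**
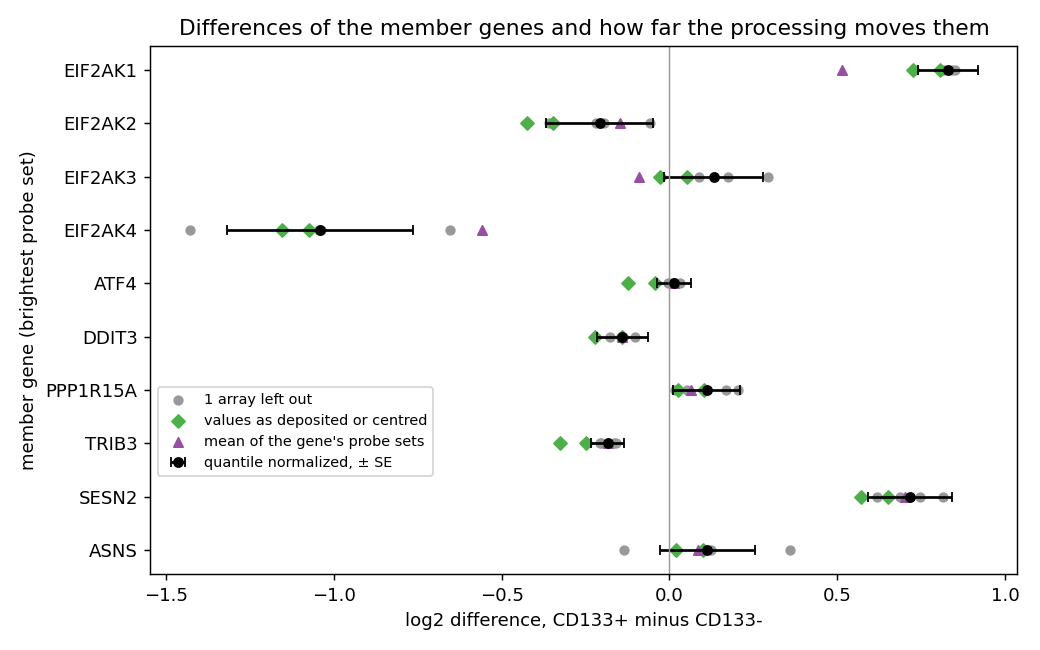
Log2 difference, CD133+ minus CD133-, of each member's brightest probe set with its standard error (black), and the same with 1 array left out (grey), with other scaling (green) or as the mean of the gene's probe sets (purple). EIF2AK1 and SESN2 stay right of 0 and EIF2AK4 left of it throughout, while the grey points of ASNS run from -0.13 to 0.36. For EIF2AK1, SESN2 and EIF2AK4 the grey points could not cross 0, since the arrays of the clones lay apart.

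ATF4 binds promoters at a composite element, part C/EBP site and part ATF site, and the one in the ASNS promoter is a textbook case. The 8 letters TGATGNAA were searched on both strands of RefSeq promoter windows (GRCh38.p14) of 250 bases before and 50 after each start. Windows were found for 9 of the 10 members, 14 windows in all, and 1 of these, of ASNS, held a match. Of all 35116 windows 3.62% held one. For the other members, no match says only that these letters are not in the window. The 250 bases before the start are given for ASNS (chr7:97872409-97872658, minus strand), the member with the match, which is in capitals, and for SESN2 (chr1:28259268-28259517, plus strand), the target gene with the larger difference.
ASNS: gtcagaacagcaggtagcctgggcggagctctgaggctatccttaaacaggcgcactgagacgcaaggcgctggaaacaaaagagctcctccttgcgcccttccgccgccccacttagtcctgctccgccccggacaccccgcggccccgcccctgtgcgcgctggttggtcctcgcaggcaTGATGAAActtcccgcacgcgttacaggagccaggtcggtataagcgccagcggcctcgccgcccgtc
SESN2: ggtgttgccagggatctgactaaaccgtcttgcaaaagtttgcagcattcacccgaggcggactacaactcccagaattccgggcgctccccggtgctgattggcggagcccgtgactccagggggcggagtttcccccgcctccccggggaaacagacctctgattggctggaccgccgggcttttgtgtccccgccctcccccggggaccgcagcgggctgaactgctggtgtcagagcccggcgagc

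The match in ASNS lies at bases -68 to -61 from the start. ASNS, which holds it, differed by 0.11 between the clones, and SESN2, with no match in this window, by 0.72.

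The 6 lists of pathway genes around the members held 128 measured genes, each taken by its brightest probe set in the same fit. Of the 128, 0 were called there, where 0.329% of all genes were. By limma 36 had an unadjusted p under 0.05, and the smallest adjusted p was 0.0554. Of all 54613 probe sets, 6950 had an unadjusted p under 0.05, a count over probe sets rather than genes. In the gene-level fit, which takes 1 probe set a gene and adjusts over genes only, 4 were called higher and 1 lower in CD133+ cells, where 0.930% of all genes were called higher and 1.77% lower. The arrays of the clones lay apart in 50 of the 128 genes with CD133+ higher and in 25 with CD133+ lower, where the shares over all genes were 28.4% and 19.8%.

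Of 39 measured target genes of ATF4 and CHOP outside the members, 28 had a positive difference, where 57.7% of all genes had one. The median of the 39 was 0.12. When arrays were instead centred on their medians the count was 20, where 44.5% of all genes were positive, and the median was 0.039. In the gene-level fit 2 were called higher and 0 lower, where 0.930% of all genes were called higher and 1.77% lower. ATF3, a stress-induced transcription factor that also belongs to the immediate early genes, had 11.62 and 11.20 in CD133+ and 10.70 and 10.50 in CD133- cells. Its difference was 0.81 (SE 0.14, limma adjusted p = 0.0831, or 0.0214 in the gene-level fit), with the same sign in 2 of its 3 probe sets, whose mean was at 0.47.

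GARS1, the glycyl-tRNA synthetase, had 12.91 and 12.50 in CD133+ and 12.19 and 12.01 in CD133- cells, which differ by 0.61 (SE 0.13, limma adjusted p = 0.119, or 0.0410 in the gene-level fit). Without CD133+ replicate 1 it was 0.40. GARS1 lies on chromosome 7 with a neighbour median of 0.22. Of its 20 neighbours 13 had a positive difference, where 57.7% of all genes had one, and 3 were above GARS1. The gene-level fit called 2 of the 20, FKBP14 at 0.86 and PLEKHA8 at 0.98, where 0.930% of all genes were called higher and 1.77% lower. The death receptor TNFRSF10B, a CHOP target, was at 0.38 (SE 0.085, limma adjusted p = 0.135), and its probe sets averaged 0.22. CBS, cystathionine beta-synthase of the route from homocysteine to cysteine, was at 0.55 (SE 0.13, limma adjusted p = 0.166).

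Of the ATF4 and CHOP targets with a RefSeq window, 11 of 31 held the motif, against 4.46% of all genes; the list was drawn from known targets, so this share is no independent finding. All 11 had a positive difference (median 0.19, range 0.031 to 0.81), and of the other 20 genes 12 did, with a median of 0.039, where 57.7% of all genes had one. With centred arrays the counts were 7 of 11 and 9 of 20, with medians of 0.080 and -0.037. There 44.5% of all genes were positive and their median was -0.035. The split of differences by motif was not planned and was not tested. The smallest of the 11 differences, 0.031 before centring, had an SE of 0.078. The sites of the 2 targets called in the gene-level fit are given beside that of ASNS, with the match in capitals, for ATF3 (chr1:212565206-212565233, plus strand), GARS1 (chr7:30594835-30594862, plus strand, match on the other strand) and ASNS (chr7:97872459-97872486, minus strand).
ATF3: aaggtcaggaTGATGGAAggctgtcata
GARS1: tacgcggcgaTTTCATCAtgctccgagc
ASNS: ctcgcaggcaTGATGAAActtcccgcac

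Regulators of the kinases included the lowest values of all the lists. Of 11 measured, 1 was called lower and 0 higher in the gene-level fit, where 1.77% of all genes were called lower and 0.930% higher. A positive difference was found in 5, where 57.7% of all genes had one, and the median was -0.044. With centred arrays 2 were positive, where 44.5% of all genes were, and the median was -0.16. Without CD133+ replicate 2 the median was -0.17. PRKRA, or PACT, the protein activator of EIF2AK2, had 8.71 and 8.57 in CD133+ and 9.49 and 9.57 in CD133- cells. Its difference was -0.88 (SE 0.12, limma adjusted p = 0.0554, or 0.0100 in the gene-level fit), with the same sign in both of its probe sets. PRKRA lies on chromosome 2 among genes that were also lower. Of its 20 neighbours 6 had a positive difference, where 57.7% of all genes had one, and their median was -0.48. The gene-level fit called 7 of the neighbours, where 0.930% of all genes were called higher and 1.77% lower.

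OMA1, the mitochondrial protease whose cleavage of DELE1 activates EIF2AK1, had 6.32 and 5.82 in CD133+ and 7.23 and 6.87 in CD133- cells. Its difference was -0.98 (SE 0.24, limma adjusted p = 0.158), below all 20 of its neighbours on chromosome 1, whose median was 0.076. IMPACT, a competitor of EIF2AK4 for its activator GCN1, was at -0.61 (SE 0.19, limma adjusted p = 0.242). HSPA5, the chaperone BiP that holds EIF2AK3 inactive, was at -0.17 (SE 0.064, limma adjusted p = 0.322), and the mean over its probe sets had the other sign (0.13).

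The 18 genes of the eIF2 complex, its exchange factor eIF2B and its phosphatases had a median of 0.034, which was -0.0046 with no scaling and -0.083 with centred arrays, with 0 called in either fit. EIF2S2, the beta subunit of eIF2, was at 0.16 (SE 0.061, limma adjusted p = 0.322). The exchange factor subunit EIF2B5 was at 0.24 (SE 0.14, limma adjusted p = 0.499), with the other sign in the mean of its probe sets (-0.016). PPP1CB, a catalytic subunit of protein phosphatase 1, was at 0.31 (SE 0.18, limma adjusted p = 0.508), a sign that 1 of its 4 probe sets had. Leaving out CD133- replicate 1 gave 0.063, leaving out CD133- replicate 2 gave 0.56, and its probe sets averaged 0.015. The adaptor NCK1 was at -0.57 (SE 0.17, limma adjusted p = 0.239), negative in all 4 of its probe sets.

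The IRE1 and ATF6 branches are the parts of the unfolded protein response that do not act through eIF2. Of 23 genes of these branches 16 had a positive difference, where 57.7% of all genes had one. The median of the 23 was 0.12, and 0 were called in either fit. The arrays lay apart in 14 of the 23 with CD133+ higher and in 0 with CD133+ lower. The shares over all genes were 28.4% and 19.8%. With centred arrays 13 of the 23 were positive, where 44.5% of all genes were, and the median was 0.023. The chaperones of glycoprotein folding CALR and CANX were at 0.55 (SE 0.14, limma adjusted p = 0.173) and 0.26 (SE 0.067, limma adjusted p = 0.178). The sign was the same in 2 of 3 and 4 of 5 probe sets, whose means were at 0.25 and 0.067. EDEM1, of the degradation of misfolded glycoproteins, was at 0.62 (SE 0.17, limma adjusted p = 0.197), and the secreted chaperone-like protein MANF at 0.18 (SE 0.076, limma adjusted p = 0.379).

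Paralogues of the members and the GATOR and Rag proteins with which sestrins act had a median of 0.054 over 20 genes (-0.0027 as deposited, -0.082 with centred arrays). In the gene-level fit, where 0.930% of all genes were called higher and 1.77% lower, 1 was called higher and 0 lower. That gene was MIOS, a subunit of GATOR2, the complex that SESN2 binds. MIOS had 9.34 and 9.23 in CD133+ and 8.67 and 8.56 in CD133- cells, which differ by 0.67 (SE 0.13, limma adjusted p = 0.0929, or 0.0228 in the gene-level fit). The mean of its probe sets was at 0.36. MIOS lies on chromosome 7 with a neighbour median of 0.25, and its nearest 20 genes include ZDHHC4 and INTS15, which are also neighbours of EIF2AK1. Of the other GATOR2 subunits, SEC13 was at 0.39 (SE 0.084, limma adjusted p = 0.129), SEH1L at -0.45 (SE 0.12, limma adjusted p = 0.204), WDR59 at 0.046 and WDR24 at -0.024. CASTOR2, of the arginine-sensing CASTOR family, was at 0.49 (SE 0.18, limma adjusted p = 0.313).

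Interferon-induced genes, the class to which EIF2AK2 belongs, had a median of -0.075 over 19 genes. Of these, 1 was called higher and 0 lower in the gene-level fit, where 0.930% of all genes were called higher and 1.77% lower. The median was -0.029 as deposited, -0.11 with centred arrays and 0.0024 without CD133+ replicate 1. ISG15, a ubiquitin-like modifier, was at 0.48 (SE 0.10, limma adjusted p = 0.122, or 0.0384 in the gene-level fit). IFIH1, or MDA5, like EIF2AK2 a sensor of double-stranded RNA, was at -0.86 (SE 0.19, limma adjusted p = 0.132), negative in all 3 of its probe sets. The antiviral GTPase MX1 was at -0.70 (SE 0.25, limma adjusted p = 0.297), and IRF9, of the interferon signalling complex, at 0.47 (SE 0.17, limma adjusted p = 0.320).

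**Figure D4:**
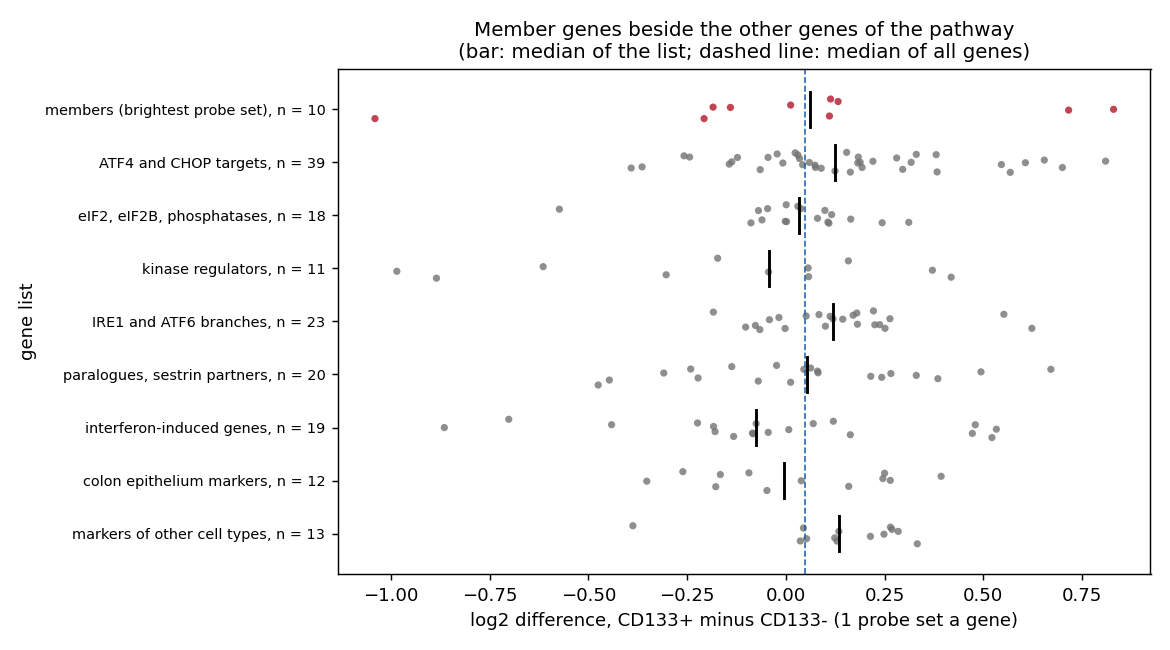
Log2 difference, CD133+ minus CD133-, of the 10 members (red, brightest probe set) and of the genes of each list (grey, 1 probe set a gene), with the median of each list (bar) and of all genes (dashed line, 0.047). The members reach from -1.04 to 0.83 around a median of 0.061, and the kinase regulators reach down to -0.98.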

How the data were processed

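The deposited table held log2 signals, 1 value per probe set and array, as their range (2.52 to 14.57) shows. Affymetrix Expression Console was used, per the submitters' processing notes; its version, background correction and normalization are not given in the sources used here. Array medians ran from 4.45 to 4.60, so the values were quantile normalized, which removes any true difference in the overall distribution. Of 54613 probe sets besides 62 controls, 41091 named 1 gene in the platform annotation, 1801 several and 11721 were unlisted. Of 19775 genes, 19735 matched RefSeq (GRCh38.p14) by gene ID. Where a gene had several probe sets, the one brightest on average over all 4 arrays stood for it.

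limma 3.58.1 in R 4.3.3 compared CD133+ with CD133- over all probe sets (lmFit, eBayes with a variance trend, prior degrees of freedom 5.65, Benjamini-Hochberg adjustment, no filter on level), after a test on simulated data. The gene-level fit used 1 probe set a gene. Alternatives were the values without scaling, median centring, a level filter, other eBayes settings, averaged probe sets, a replicate block and each array left out. With 2 arrays against 2, an exact two-sided permutation test cannot give a p below 0.333. Arrays give no counts, and their number limits the precision (median SE 0.18). Neighbours, motifs and figures used Python 3.11.15, numpy 2.4.6, pandas 2.3.3 and matplotlib 3.10.9. The text names PROM1, all members and their paralogues, and up to 4 genes with the smallest p in each of 8 lists; neighbours and other GATOR2 subunits were named after their values were seen. Members and lists were chosen with earlier results of these data known.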

Additional observations from a re-analysis of the deposited data

How the results depend on the processing

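With 2 arrays per clone the number of calls depended strongly on the processing. The differences of EIF2AK1, EIF2AK2, EIF2AK4, DDIT3, PPP1R15A, TRIB3 and SESN2 kept their sign in all 12 alternative settings. EIF2AK3 and ATF4 kept it in 9 and ASNS in 11. The level filter, the other eBayes settings, 1 probe set a gene and the replicate block leave these differences unchanged by construction. Only the other scalings, averaged probe sets and left-out arrays could turn a sign. For EIF2AK1, EIF2AK2, EIF2AK4, DDIT3, TRIB3 and SESN2 a left-out array could not, because the arrays of the clones lay apart. Averaging could turn a sign only where the probe sets of a gene differed in sign, as among the members only those of EIF2AK3 did. Of all probe sets, 99 were called, 27 of them higher in CD133+ cells. The count was 6 in the values as deposited (3 higher), 32 with centred arrays, 2 without the variance trend, 152 with robust settings, 534 genes with 1 probe set a gene and 175 genes with probe sets averaged per gene. Against 1 member probe set called, there were 0 in the values as deposited, with centred arrays, without the trend and with the mean of probe sets, and 2 with 1 probe set a gene. Against 0 pathway list genes called, there was 1 without the dimmest 20% of probe sets, 1 with robust settings and 5 with 1 probe set a gene. Leaving out 1 array at a time gave 9 to 644 probe sets, 0 to 4 member probe sets and 0 to 6 pathway list genes; for all probe sets the counts were 644 and 379 without CD133+ replicate 1 or 2, and 9 and 53 without CD133- replicate 1 or 2. In those fits the single array left in a clone is taken to vary as the other clone does. The gene-level fit tests fewer rows and also estimates its own variance trend. The cause of the changes in the number of calls was not tested. Means over probe sets turned the sign of EIF2AK3 (-0.091), EIF2B5 (-0.016) and HSPA5 (0.13).

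The titles number the arrays 1 and 2 in both clones, and nothing says that a number marks a shared batch. The differences between replicates 1 and 2 correlated between the clones with r = 0.40 across probe sets, which share arrays. With the replicate block 2554 probe sets, 4 member probe sets and 18 pathway list genes were called.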
